A study of Mus musculus with 167 samples.

Results

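miR-342 is a microRNA encoded in the mouse gene Evl, and both of its mature arms, miR-342-3p (counted as mmu-miR-342-3p) and miR-342-5p (mmu-miR-342-5p), were followed through lung, heart, brain, leukocytes (WBC) and erythrocytes (RBC) of C3Hf/Sed/Kam (C3H) and C57Bl/6 (C57) mice. The members are 2 of the 1915 microRNAs (miRNA) counted by small RNA sequencing in each of the 5 tissues, and they were chosen by their measured difference between the strains in earlier results of these data. Mice received a single dose of X-rays to the thorax (whole thorax lung irradiation, WTLI), set for each strain to a similar lethality, or were sham irradiated. Irradiated survivors and sham controls of C3H were sampled in month 4, and those of C57 in month 6. Males were 8 to 10 and females 10 to 12 weeks old at exposure, so sex cannot be told apart from age. The C57 sham group held 15 mice (8 males, 7 females), the C57 WTLI group 5 mice (4 males, 1 female), the C3H sham group 8 females and the C3H WTLI group 7 females. All mice gave a library of every tissue except WBC, with 11, 5, 5 and 6 libraries in the same order. Strain cannot be told apart from month of sampling. Since every C3H mouse was female and 4 of 5 irradiated C57 mice were male, strain in irradiated mice also largely cannot be told apart from sex.

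A miRNA hairpin is cut into a short duplex, and usually one strand of that duplex, the guide, is retained in Argonaute while the other, the passenger, is degraded. The guide recognises target mRNAs mainly through its seed, bases 2 to 8. Evl encodes an actin regulator of the Ena/VASP family, and miR-342-3p is known as the abundant arm, with expression in lymphoid and other blood cells and in brain.

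The Mir342 hairpin lies at chr12:108658620-108658718 on the plus strand of GRCm38, the assembly also called mm10. Evl occupies chr12:108554720-108688516 on the same strand. In 5 of the 7 annotated Evl transcripts (GENCODE M21) the hairpin lies in the intron chr12:108653100-108673288, the 3rd intron of Evl-201, Evl-202, Evl-203 and Evl-206 and the 4th of Evl-204. The other 2 transcripts do not span it, and it overlaps no Evl exon. The sequences below, from RefSeq on GRCm38.p6, are shown because the arms behaved differently between strains. The hairpin has both mature arms in capitals, the 5p arm at bases 19 to 40 and the 3p arm at bases 61 to 83, and each mature arm has its seed in capitals.
Mir342 hairpin: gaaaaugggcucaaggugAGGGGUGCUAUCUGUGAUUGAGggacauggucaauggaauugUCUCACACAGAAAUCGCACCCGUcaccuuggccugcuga
miR-342-5p: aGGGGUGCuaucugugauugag
miR-342-3p: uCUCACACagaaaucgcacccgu
No other mature mouse miRNA among the 1679 in the RefSeq table shared either seed, so neither arm belongs to a larger seed family there.

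Libraries held 1794995 to 7865102 miRNA reads, and levels are given as RPM, the reads of a miRNA scaled to 1000000 miRNA reads of its library. miR-1a-3p, the cardiac and skeletal muscle miRNA, was higher in all 35 heart libraries than in any other tissue. miR-124-3p, the neuronal miRNA, was likewise higher in all 35 brain libraries, and miR-34c-5p, a miRNA of ciliated epithelium, in all 35 lung libraries. WBC and RBC were less distinct from each other. The erythroid miR-451a had a median of 8905 RPM in WBC and 13189 RPM in RBC, and the myeloid miR-223-3p a median of 528 RPM in WBC and 115 RPM in RBC.

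miR-342-3p was most abundant in brain and least abundant in RBC in both strains. In sham C57 mice it reached 1217 ± 430 RPM in brain (SD, n = 15), 234 ± 173 RPM in lung (n = 15), 144 ± 46.1 RPM in heart (n = 15), 78.4 ± 62.7 RPM in WBC (n = 11) and 20.9 ± 13.9 RPM in RBC (n = 15). In sham C3H mice it was 180 ± 33.9 RPM in brain, 93.0 ± 35.0 RPM in lung and 26.5 ± 3.31 RPM in heart (SD, n = 8 each), then 18.1 ± 7.97 RPM in WBC (n = 5) and 5.87 ± 2.77 RPM in RBC (n = 8). The order was tested within animals by exact sign-flip permutation of log2(RPM + 1), two-sided, with adjustment over 40 tests. Brain exceeded lung in 15 of 15 C57 mice by 2.66 (adjusted exact p = 0.000349, from the smallest p that 15 mice allow), and in 8 of 8 C3H mice by 1.05 (adjusted exact p = 0.0149). Lung and heart did not differ beyond their spread in C57 (0.39, higher in lung in 10 of 15 mice, adjusted exact p = 0.231), whereas lung exceeded heart in 8 of 8 C3H mice by 1.65 (adjusted exact p = 0.0149). In C57 mice lung exceeded WBC by 1.56 in 10 of 11 mice (adjusted exact p = 0.016), heart exceeded WBC by 1.23 in 9 of 11 (adjusted exact p = 0.0204) and WBC exceeded RBC by 1.79 in 11 of 11 (adjusted exact p = 0.0033). The 5 C3H mice with a WBC library could not give an exact p below 0.0625. The difference of heart over WBC in them was 0.51.

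**Figure D1:**
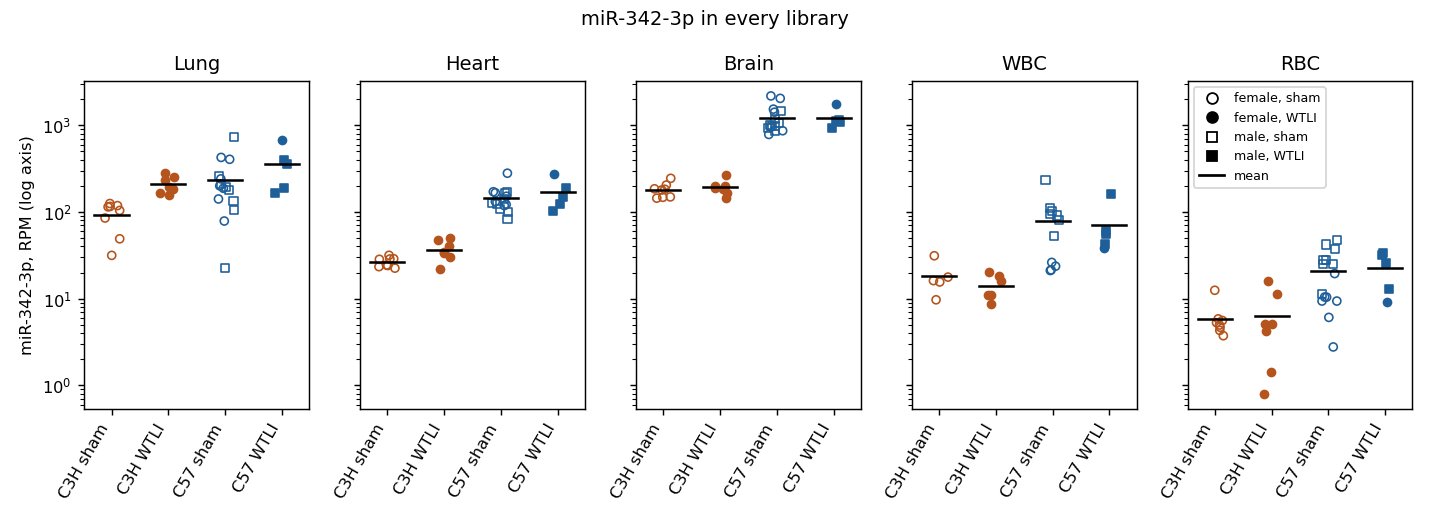
Level of miR-342-3p in RPM on a log axis, 1 point per library, by tissue and by strain and exposure. Circles are females, squares males, open symbols sham, filled symbols WTLI, and black lines group means. Strains do not overlap in heart or brain, overlap in lung and RBC, and in WBC of sham C57 mice the 4 females sit at 21.1 to 26.2 RPM, below the 7 males.

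The strains were set apart most clearly in brain and heart. In brain, miR-342-3p ranged from 144 RPM through a median of 181 to 245 RPM in sham C3H and from 784 RPM through 1007 to 2179 RPM in sham C57. The irradiated C57 brains were at 936, 1103, 1113, 1139 and 1763 RPM, and the irradiated C3H brains ranged from 146 RPM through a median of 188 to 266 RPM. All 20 C57 brains were thus above all 15 C3H brains. In heart, sham C3H ranged from 22.5 RPM through 26.4 to 31.7 RPM and sham C57 from 83.7 RPM through 132 to 280 RPM. The irradiated C57 hearts were at 102, 124, 150, 188 and 276 RPM, against 22.2 RPM through 34.5 to 49.7 RPM in irradiated C3H hearts. Again all 20 C57 libraries were above all 15 C3H libraries. How many of all miRNAs separate groups in this way was not counted, here or for the other ranges without overlap given below.

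Because the strain difference selected these miRNAs, it is given in sham mice as a description, and it was tested in irradiated mice only. Which libraries the selection had used is not recorded, so the test in irradiated mice may not be independent of it. Fits were made per tissue with limma-voom after quantile normalisation, and a call means a Benjamini-Hochberg adjusted p under 0.05 over all miRNAs tested in that tissue. In irradiated mice miR-342-3p was higher in C57 than in C3H by 2.52 on the log2 scale in brain (SE 0.19, 5.72-fold, limma adjusted p = 2.5e-12) and by 2.07 on that scale in heart (SE 0.25, 4.21-fold, limma adjusted p = 8.37e-08). It had the smallest p of the 433 miRNAs tested in brain and the 6th smallest of the 312 tested in heart. Selection by strain difference favours such ranks, so they are given as a description. As background, 3.23% of the miRNAs tested in brain and 6.73% of those in heart were called higher in irradiated C57. The fitted sham differences were 2.60 (SE 0.15) in brain and 2.57 (SE 0.20) in heart. With sex as a covariate the differences in irradiated mice were 2.80 in brain and 2.62 in heart, and among sham females alone, 2.77 (SE 0.16) and 2.88 (SE 0.19), described without a test.

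In lung the strains overlapped. The irradiated C57 lungs were at 166, 188, 354, 401 and 681 RPM, and the irradiated C3H lungs ranged from 156 RPM through a median of 194 to 285 RPM, so 3 of 5 C57 libraries were above every C3H library. The fitted difference in irradiated mice was 0.75 (SE 0.43, 95% confidence interval -0.13 to 1.64) and was not called (limma adjusted p = 0.171), in a tissue where 16.3% of miRNAs were called higher in irradiated C57. Over 11 alternatives, sex as a covariate among them, the difference in irradiated mice was 0.61 to 1.21 and was never called. In sham mice the fitted difference was 1.11 (SE 0.35), and 12 of 15 C57 lungs were above every sham C3H lung, while the lowest of all lung libraries, 22.8 RPM, was also a sham C57 one. Among sham females alone the difference was 1.31 (SE 0.39), described without a test.

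In WBC the irradiated C57 libraries were at 38.2, 42.3, 55.6, 60.7 and 161 RPM, and the irradiated C3H libraries ranged from 8.65 RPM through a median of 13.4 to 20.3 RPM. The groups did not overlap in RPM and their means differed 5.07-fold, yet the fitted difference was 0.71 (SE 0.43, 95% confidence interval -0.16 to 1.59) and was not called (limma adjusted p = 0.184; 20.3% of miRNAs called higher). The share of all WBC miRNAs without overlap was not counted. The fitted value moved with the scaling and with the sex covariate. With library size alone, without quantile normalisation, the difference was 2.20 (limma adjusted p = 0.000891), but the median over all 291 WBC miRNAs tested was then itself shifted by 1.32 toward C57. With edgeR, which changes the scaling and the test, it was 1.08 (adjusted p = 0.0472, edgeR quasi-likelihood test). With sex as a covariate it turned to -0.32 (limma adjusted p = 0.59).

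In RBC, with the lowest levels, the irradiated C57 libraries were at 9.10, 12.9, 26.1, 32.1 and 33.3 RPM and the irradiated C3H libraries ranged from 0.797 RPM through 5.09 to 16.1 RPM. The groups overlapped, with 3 of 5 C57 libraries above every C3H library. miR-342-3p was called higher in irradiated C57 by 1.85 (SE 0.57, 3.61-fold, limma adjusted p = 0.0283; 6.99% of miRNAs called higher), and with sex as a covariate the difference was 0.45 (limma adjusted p = 0.602). The call was also lost when any of 5 libraries was left out, C57 WTLI replicate 1, 2 or 4 or C3H WTLI replicate 1 or 7, with limma adjusted p-values up to 0.0936 and differences of 1.55 to 1.83.

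**Figure D2:**
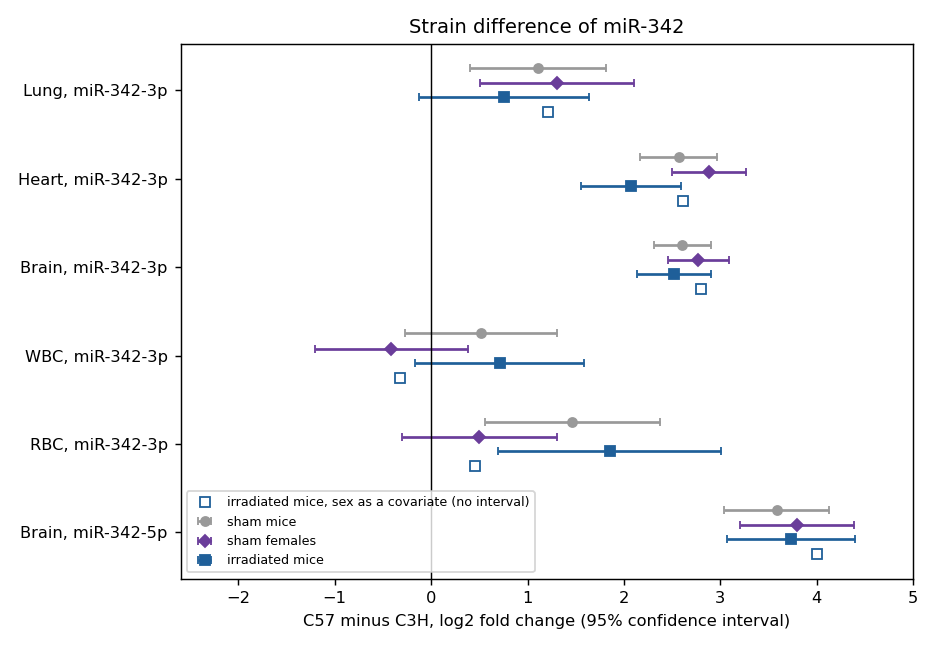
Strain difference of miR-342 on the log2 scale (C57 minus C3H, above 0 is higher in C57) by tissue and arm. Points are fitted differences with 95% confidence intervals for sham mice, sham females and irradiated mice, and open squares are irradiated mice with sex as a covariate, without an interval. In heart the 4 values lie from 2.07 to 2.88 and in brain from 2.52 to 2.80 for miR-342-3p, and in WBC the values for sham females and for the sex covariate lie below 0.

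Thus a call of higher miR-342-3p in irradiated C57 was made in 3 of the 5 tissues, brain, heart and RBC. Of 174 miRNAs tested in all 5 tissues, 4 were called higher in irradiated C57 in at least 3 tissues (miR-342-3p, miR-192-5p, miR-326-3p and miR-221-3p), and none in all 5. Estimates above 0 in all 5 tissues, as for miR-342-3p, were found for 11 of the 174 (6.32%). Because a strain difference selected miR-342-3p, its place in these counts is a description and no separate support. The sizes were then compared between tissues within the irradiated animals by exact permutation of strain, two-sided, over 20 tests, 10 tissue pairs for each of 2 arms. The miR-342-5p tests, with every C3H library at 0, count in this adjustment. Their small p-values can lower the adjusted p-values of miR-342-3p, which were not also adjusted over the 3p tests alone. The strain difference of miR-342-3p in log2(RPM + 1) was smaller in lung than in heart by 1.50 and smaller in lung than in brain by 2.02 (adjusted exact p = 0.0101 for each, from the smallest p that 5 and 7 mice allow, 0.00253). Heart and brain differed by 0.52, which did not pass the test (adjusted exact p = 0.147). Lung fell short of WBC by 1.51 (adjusted exact p = 0.0577) and of RBC by 1.31 (adjusted exact p = 0.152). Without the 1 irradiated C57 female (C57 WTLI replicate 5) lung minus WBC was -1.96 (adjusted exact p = 0.0272) and lung minus RBC -1.85 (adjusted exact p = 0.0303), both past the threshold. These values are on the library-size scale, where the median over all WBC miRNAs was shifted by 1.32 toward C57, and in the quantile-normalised fits the strain differences in lung and WBC were 0.75 and 0.71.

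Leukocyte miRNAs were read beside these results, since leukocytes carry miR-342. In bulk samples, fewer cells of a type cannot be told apart from less RNA per cell. In irradiated brain the summed level of 5 leukocyte miRNAs (miR-150-5p, miR-155-5p, miR-223-3p and both arms of miR-142a) was 614 to 834 RPM in C3H and 542 to 860 RPM in C57. The ranges overlapped while miR-342-3p did not. In heart the sums were 833 to 2656 RPM in C3H and 1776 to 2374 RPM in C57, and in lung 2552 to 7019 RPM in C3H and 5564 to 6829 RPM in C57. One of the 5 was called higher in irradiated C57 in each organ, miR-155-5p in brain (1.43) and lung (0.80) and miR-150-5p in heart (1.20, limma adjusted p = 5.1e-06), where 3.23% (brain), 16.3% (lung) and 6.73% (heart) of all miRNAs were called higher. Other marker lists differed between the irradiated strains too. In lung 1 of 5 neural miRNAs, miR-9-5p, was called higher in C57 (1.47), and of the 2 lung epithelium miRNAs (miR-200c-3p and miR-34c-5p) miR-34c-5p was called higher (0.89) and miR-200c-3p lower (-0.78). All 4 erythrocyte miRNAs (miR-451a, miR-486a-5p and both arms of miR-144) were called lower in C57 lung, with differences of -3.22 to -1.86, in a comparison with 15.7% of miRNAs called lower. Of the 4 lymphocyte and inflammation miRNAs described with the blood cells, miR-155-5p was called higher there and miR-146a-5p lower (-0.75, SE 0.20, limma adjusted p = 0.00625). In heart 1 of the 5 neural miRNAs, miR-9-5p, was called higher in C57 (0.69). The sum of the 2 lung epithelium miRNAs there was 162 to 630 RPM in C3H and 64.0 to 147 RPM in C57, without overlap, and miR-34c-5p was called lower in C57 (-1.79, SE 0.33, limma adjusted p = 0.000116; 8.33% of miRNAs called lower). The part of leukocytes and of these other cell types in the strain difference of these organs was not tested.

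The 5p arm was read in C57 mice alone. It had 0 reads in all 71 C3H libraries, from 15 mice and beside 18688 reads of the 3p arm. The 96 C57 libraries held 268 reads of it, in 55 libraries, beside 108090 reads of the 3p arm. In brain every one of the 20 C57 libraries had it, with 4 to 16 reads in sham and with 8, 9, 12, 12 and 18 reads in irradiated mice, 209 reads in all, and all 15 C3H libraries had none. Irradiated C57 brains held 4.25 ± 1.21 RPM (SD, n = 5) and sham C57 brains 3.34 ± 1.30 RPM (n = 15). These reads were 0.286% of both arms' reads in C57 brain (95% exact Clopper-Pearson interval 0.248% to 0.327%, counting error only). In C3H brain the count was 0 beside 7955 reads of the 3p arm. The upper 95% exact limit of the 5p share was 0.0464%, and the floor of 3 reads was 0.0377%. The C57 share of those reads would be 22.8 reads. Pooled by strain, the level in C57 brain was 50.2-fold the floor of 3 reads over all C3H brain libraries. This ratio leaves out the counting error of the C57 reads and the spread between mice. Of the 403 miRNAs with as many C57 brain reads as miR-342-5p or more, it was the only one at 0 in every C3H brain. In the other direction, none of the 370 miRNAs with at least 209 C3H brain reads was at 0 in every C57 brain. This comparison was made after the values were seen.

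**Figure D3:**
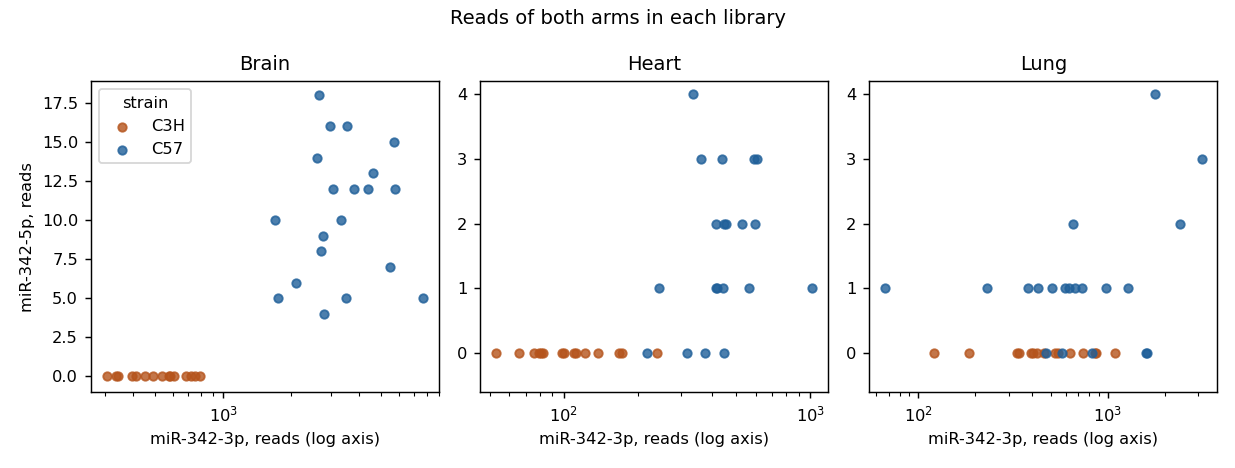
Reads of miR-342-5p against reads of miR-342-3p (log axis) in each brain, heart and lung library, coloured by strain. C3H libraries lie at 0 reads of the 5p arm throughout, also where their 3p reads match those of C57 lung libraries.

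Outside the brain the 5p arm was near its limit of counting. C57 heart held 32 reads in 16 of 20 libraries and C57 lung 22 reads in 15 of 20 libraries. Their pooled levels were 9.03-fold and 5.61-fold the floor of C3H, again without the counting error of the C57 reads. C57 WBC held 2 reads and C57 RBC 3 reads, each in 2 libraries, so a difference was not detectable there at this depth. In irradiated mice alone, the strains differed in log2(RPM + 1) by 2.37 in brain, by 0.68 in heart and by 0.47 in lung, the last 2 with 10 and 9 reads in 4 of 5 C57 libraries each. WBC differed by 0.14 and RBC by 0.07. With every C3H library at 0 and the arm chosen for its strain difference, these values restate the C57 levels and are given without a test. Only the brain table kept miR-342-5p after the filter on low counts, and there it passed only through the C57 libraries, so a fitted difference had to follow. The fit gave 3.73 in irradiated mice (SE 0.33) and 3.58 in sham mice, given as a description. These values depend on the offset given to the zeros of C3H and are not bounds. Reads of both strains had been aligned to mm10, which is built from C57 mice. C3H sequence of the hairpin was not analysed here, and the part of alignment in either arm's strain difference was not tested.

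In C57 mice, where both arms were read, the 5p share of both arms' reads was 0.113% in lung (95% exact interval 0.0706% to 0.171%), 0.346% in heart (0.237% to 0.488%) and 0.286% in brain, pooled over libraries and with intervals for counting error only. Per library, the log2 ratio of 3p to 5p reads in sham C57 mice overlapped between these tissues, with 8.95 ± 1.51 in lung, 8.04 ± 0.92 in heart and 8.48 ± 0.85 in brain (SD, n = 15 each), and no difference between tissues was tested. No shift of the log2 ratio of the arms after irradiation passed the test in a C57 tissue. The largest shift was 0.58 in lung, to 9.53 ± 1.27 in irradiated mice (SD, n = 5), with an exact permutation p adjusted over 10 tests of 0.697. In C3H mice the ratio follows the 3p reads alone and says nothing about the 5p arm.

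After irradiation miR-342-3p was called higher in C3H heart, and in C3H lung the fitted difference was called under some alternatives only. In C3H heart it rose from 26.5 ± 3.31 RPM (SD, n = 8) to 36.9 ± 9.70 RPM (n = 7), and 5 of 7 irradiated libraries were above every sham library. The fitted rise was 0.71 (SE 0.23, 1.63-fold, limma adjusted p = 0.03; 10.3% of miRNAs called higher). It was not called with edgeR (0.60, adjusted p = 0.0757) or DESeq2 (0.61, adjusted p = 0.0524), with library size alone (0.44, limma adjusted p = 0.148), or by exact permutation of log2(RPM + 1) (0.43, adjusted exact p = 0.174). Leaving out any of 7 libraries also ended the call (C3H sham replicates 1 to 4 and C3H WTLI replicates 3, 5 and 7), with 0.62 to 0.68 and limma adjusted p-values of 0.0542 to 0.0875. In C3H lung miR-342-3p went from 31.6 RPM through a median of 109 to 125 RPM in sham mice and from 156 RPM through 194 to 285 RPM in irradiated mice, and each of the 7 irradiated lungs exceeded the highest of the 8 sham lungs. The means differed 2.25-fold. The share of all lung miRNAs that separated in this way was not counted. The fitted difference was 1.00 (SE 0.41, 95% confidence interval 0.18 to 1.83) and just missed the threshold (limma adjusted p = 0.0548; 16.3% of miRNAs called higher). With library size alone it was 1.27 (limma adjusted p = 0.0261), where the median over all lung miRNAs moved by 0.27, and by exact permutation of log2(RPM + 1) it was 1.26 (adjusted exact p = 0.00622 over 20 tests). In these lungs the leukocyte sum was 3397 to 4826 RPM in sham and 2552 to 7019 RPM in irradiated mice, and none of its 5 miRNAs was called. Of the lymphocyte and inflammation miRNAs 1 of 4, miR-146a-5p, was called higher by 0.46 (SE 0.18, limma adjusted p = 0.0478), and their sum was 10568 to 15317 RPM in sham and 10084 to 17498 RPM in irradiated mice. Both heart miRNAs, miR-1a-3p and miR-208a-3p, were called lower, where 17.1% of all miRNAs tested were, and their sum was 4586 to 7382 RPM in sham and 2510 to 5124 RPM in irradiated mice.

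Markers of other cell types moved in the same C3H hearts. The sum of 2 lung epithelium miRNAs was 53.4 to 155 RPM in sham and 162 to 630 RPM in irradiated hearts, without overlap, and 1 of the 2, miR-34c-5p, was called higher by 2.43 on the log2 scale (SE 0.29, limma adjusted p = 5.55e-08). Of 4 erythrocyte miRNAs, miR-451a and miR-144-5p were called lower (6.41% of all miRNAs tested were), and their sum was 608 to 2740 RPM in sham and 331 to 1722 RPM in irradiated hearts. Of 5 leukocyte miRNAs, miR-150-5p was called lower (by 1.63, SE 0.16) and none higher. Of the 4 lymphocyte and inflammation miRNAs, which also hold miR-150-5p, miR-146a-5p was called higher by 0.96 (SE 0.18), and the sum was 1205 to 1827 RPM in sham and 1536 to 2528 RPM in irradiated hearts. Neither of the 2 heart miRNAs was called (median difference -0.86), while their sum was 199155 to 279025 RPM in sham and 46675 to 237407 RPM in irradiated hearts. C3H WTLI replicate 3 was the lowest of these at 46675 RPM, with the next at 143535 RPM, and it is among the libraries without which the miR-342-3p call was lost. The part of these cell types in the heart and lung values of miR-342-3p was not tested.

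In C57 mice no tissue gave a call. The fitted differences were 0.65 (SE 0.38, limma adjusted p = 0.226) in lung and 0.21 (SE 0.22, limma adjusted p = 0.73) in heart, with 9.43% and 3.21% of miRNAs called higher. In brain, outside the beam, miR-342-3p differed by 0.01 in C57 (95% confidence interval -0.31 to 0.34) and by 0.10 in C3H (-0.26 to 0.46). The 5p arm in C57 brain differed by 0.43 (SE 0.24, limma adjusted p = 0.486). In WBC the values were 0.29 in C57 (-0.49 to 1.07) and 0.09 in C3H (-0.80 to 0.97), and in RBC 0.31 in C57 (-0.62 to 1.23) and -0.08 in C3H (-1.23 to 1.06). In the limma fit of filtered, quantile-normalised counts no miRNA was called after irradiation in brain, WBC or RBC of either strain (0% of those tested). Unadjusted p-values under 0.05 numbered 9 in C3H brain, 53 in C57 brain, 20 in C3H WBC, 12 in C57 WBC, 43 in C3H RBC and 14 in C57 RBC. edgeR called 3 miRNAs in C57 brain, 12 in C3H RBC and 1 in C57 RBC, and DESeq2 called 9, 22 and 1 there, with 0 in the other 3 comparisons by either tool.

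**Figure D4:**
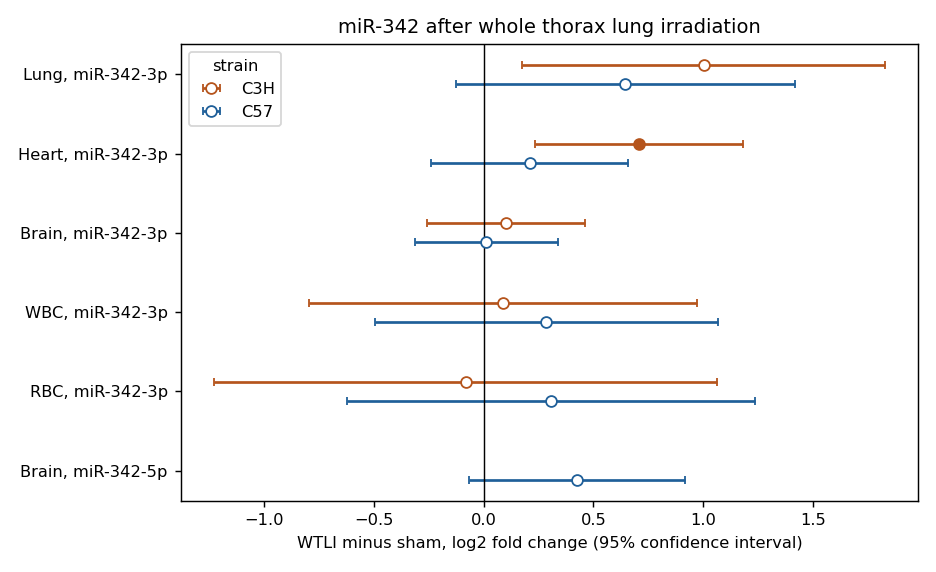
Change of miR-342 after irradiation on the log2 scale (WTLI minus sham) with 95% confidence intervals, by tissue, arm and strain. Filled points passed the limma adjusted threshold and open points did not. Only C3H heart is filled, and the 5p arm is shown for C57 brain alone because C3H had no reads of it.

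No difference between the strains' responses to irradiation passed the test. The interaction for miR-342-3p, the C57 minus the C3H response, was -0.35 (SE 0.56, limma adjusted p = 0.777) in lung and -0.50 (SE 0.32, limma adjusted p = 0.374) in heart. In brain it was -0.09 (SE 0.24), with 0.20 (SE 0.57) for WBC and 0.39 (SE 0.72) for RBC, with limma adjusted p-values of 0.966, 1 and 0.942. limma called 1 of 350 miRNAs (0.286%) for an interaction in lung and 0 in the other tissues, where unadjusted p-values under 0.05 numbered 51 (heart), 21 (brain), 5 (WBC) and 12 (RBC). There edgeR called 0, and DESeq2 called 4 in heart and 1 in RBC.

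Females had less miR-342-3p than males in the blood cells of sham C57 mice and more of it in heart. In WBC the 4 females were at 21.1, 21.5, 23.7 and 26.2 RPM and the 7 males ranged from 53.2 RPM through a median of 95.1 to 234 RPM, without overlap. Females were lower by 1.45 on the log2 scale (SE 0.36, limma adjusted p = 0.0118; 12% of miRNAs called in either direction). In RBC the 7 females ranged from 2.78 RPM through 9.40 to 19.5 RPM and the 8 males from 11.2 RPM through 27.9 to 47.7 RPM. Females were lower there by 1.78 (SE 0.35, limma adjusted p = 0.000369; 18.8% called). In heart females were higher by 0.59 (SE 0.18, limma adjusted p = 0.0129; 39.4% called), 163 ± 55.6 RPM against 128 ± 30.4 RPM. That call was lost with library size alone (0.33, limma adjusted p = 0.128). In the same hearts miR-155-5p (0.47) and miR-181a-5p (0.82), 2 of the 4 lymphocyte and inflammation miRNAs, were called higher in females. The myeloid miR-223-3p (-0.92), the erythrocyte miR-451a (-1.20) and miR-144-3p (-1.80) and the heart miRNA miR-208a-3p (-2.51) were called lower in them. The part of these cell types in the heart value was not tested. Lung differed by 0.37 (SE 0.38, limma adjusted p = 0.555; 7.71% called) and brain by 0.32 (SE 0.15, limma adjusted p = 0.117; 22.9% called). Males and females differed in age at exposure, so sex cannot be told apart from age in these comparisons. Whether males and females were prepared together is not given in the sources used here.

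Between females of both strains, the sham difference in blood cells was small. The mean of sham C57 females was 1.28 times that of sham C3H females in WBC and 1.66 times in RBC, against 6.15 times in heart, 7.76 times in brain and 2.58 times in lung. The fitted values were -0.41 (SE 0.39) in WBC and 0.50 (SE 0.39) in RBC. Cell-type markers moved in the same comparison. In WBC 2 of 5 leukocyte and 1 of 4 lymphocyte and inflammation miRNAs were called lower in C57 (35 of 291 miRNAs were). In RBC the same numbers were called higher (24 of 229). In heart 3 of 4 lymphocyte and inflammation miRNAs were called higher, and of 5 leukocyte miRNAs 2 higher and 1 lower (72 of 312 higher, 48 lower). Members of other lists were also called, and the part of these cell types was not tested.

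Of the lymphocyte and inflammation miRNAs, 1 of 4 was called between the sexes in the same blood libraries, and their sum overlapped between the sexes in RBC but not in WBC. The sum of 4 lymphocyte and inflammation miRNAs (miR-150-5p, miR-155-5p, miR-146a-5p and miR-181a-5p) in sham WBC was 207 to 1181 RPM in C3H, 574 to 1018 RPM in C57 females and 1983 to 3559 RPM in C57 males. In RBC it was 152 to 386 RPM, 143 to 361 RPM and 279 to 591 RPM in the same order. miR-150-5p, the lymphocyte miRNA, was lower in C57 females than males by 2.61 in WBC (SE 0.38, limma adjusted p = 0.000134) and by 2.19 in RBC (SE 0.29, limma adjusted p = 2.06e-06), and none of the other 3 was called in either fraction. Other lists differed between the sexes in these libraries. In WBC the sum of the 5 leukocyte miRNAs was 16287 to 19887 RPM in females and 23819 to 33448 RPM in males, without overlap, and 2 of the 5 were called lower in females, miR-150-5p and miR-223-3p (-1.46, limma adjusted p = 0.0342). The sum of 5 neural miRNAs did not overlap in WBC either, with 938 to 1464 RPM in females and 1682 to 5804 RPM in males, while the 1 member called, miR-9-5p, was higher in females (1.56, limma adjusted p = 0.0375). In RBC miR-223-3p was called higher in females (1.16, limma adjusted p = 0.014) and the erythrocyte miR-486a-5p lower (-0.95, limma adjusted p = 0.0178). In irradiated WBC the sum was 362 to 885 RPM in C3H and 805 to 2697 RPM in C57, and between the irradiated strains none of the 4 was called in WBC or RBC. Other lists differed between the irradiated strains. The sum of the neural miRNAs was 184 to 834 RPM in C3H and 931 to 2691 RPM in C57 in WBC, and 183 to 399 RPM and 477 to 663 RPM in RBC, without overlap in either. Of the 4 neural miRNAs tested, miR-9-5p and miR-9-3p were called lower in C57 in WBC (-2.89 and -1.39) and in RBC (-2.44 and -2.16), while miR-138-5p in WBC (1.06) and miR-128-3p in RBC (0.94) were called higher. In WBC the erythrocyte miR-486a-5p (-1.13) and the lung epithelium miR-200c-3p (-1.10) were also called lower, where 21.6% of all miRNAs were, against 4.80% in RBC. The part of lymphocytes and of these other cell types in the blood values of miR-342-3p was not tested.

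**Figure D5:**
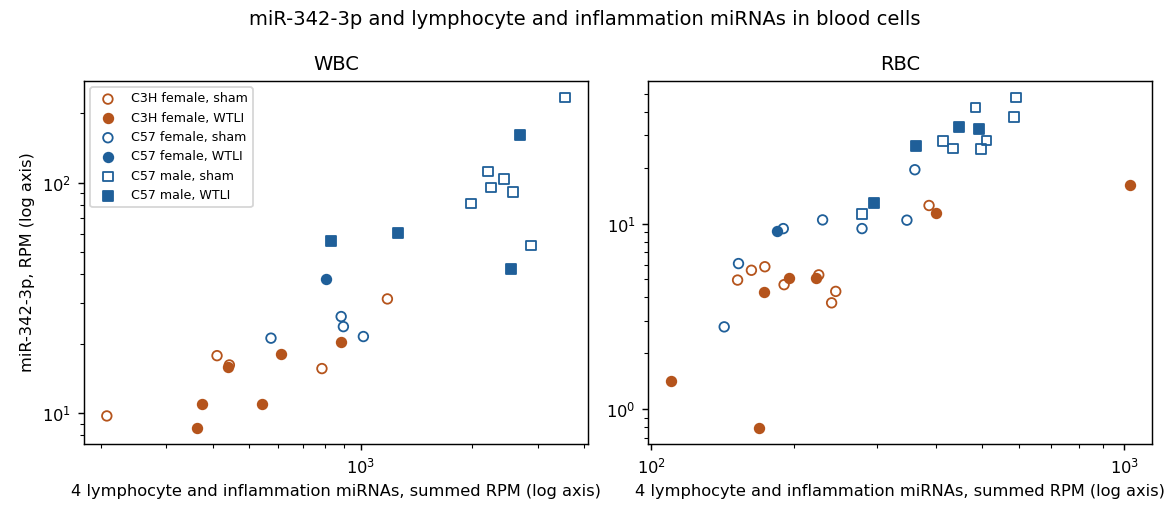
miR-342-3p against the summed level of 4 lymphocyte and inflammation miRNAs in WBC and RBC libraries, both in RPM on log axes, by strain, sex and exposure. Sham C57 males in WBC lie at 1983 to 3559 RPM on the horizontal axis and above the C57 and C3H females on both axes.

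The miRNAs whose pattern was most like that of miR-342-3p were found by Pearson's r over the 20 group means of log2(RPM + 1), as a description over groups that share tissues. They were miR-221-3p (0.92), miR-106b-3p (0.91), miR-221-5p (0.90), miR-3535 (0.90) and miR-181a-5p (0.90), all above the r of 0.72 between the 2 arms themselves. For miR-342-5p the values were lower, 0.68 for miR-376c-3p, 0.65 for miR-770-3p, 0.64 for miR-323-3p, 0.63 for miR-487b-3p and 0.63 for miR-708-5p. Within groups, over the deviations of all 167 libraries from their group means, miR-342-3p was most like miR-150-5p (0.77), miR-191-5p (0.72), miR-361-5p (0.70), miR-139-5p (0.62) and miR-155-5p (0.61). Of these 5, miR-191-5p had the highest r in brain (0.96) and lung (0.93), and miR-150-5p in WBC (0.89). The likeness varied by tissue, and in heart it was 0.45 for miR-150-5p and 0.0041 for miR-139-5p, which was at 0.82 in WBC. These libraries share total depth and, across tissues, animals.

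The nearest miRNA gene within 500000 bases was Mir345, whose start is 178353 bases downstream of that of Mir342, at chr12:108836973-108837068. miR-345-5p passed the filter in heart and WBC. In irradiated mice it differed between strains by -0.31 in heart (SE 0.49, limma adjusted p = 0.717) and by 0.50 in WBC (SE 0.82, limma adjusted p = 0.667). miR-345-3p had 1 read in total over all heart libraries, 1 over all WBC libraries and 0 elsewhere.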

How the data were processed

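The authors extracted small RNA, prepared libraries with the QIAseq miRNA Library Kit, sequenced them, and trimmed and aligned reads to mm10 in BaseSpace. They deposited 1 table of raw read counts per tissue. The number of mismatches allowed and any use of molecular identifiers are not given in the sources used here. C3H reads that differ from mm10 may be undercounted, and uneven amplification may distort counts. Sums over 1915 miRNAs gave the depth, 1794995 to 7865102 reads, and RPM. Intervals and floors (3 counts) cover counting error only.

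Counts were fitted per tissue with limma 3.58.1 (voom, quantile normalisation as in the study's methods) in R 4.3.3, for 4 groups of strain and exposure, or 6 with sex. edgeR's filterByExpr (minimum count 10, minimum total 15) left 350 miRNAs for lung, 312 for heart, 433 for brain, 291 for WBC and 229 for RBC. The strain comparison in irradiated mice shares its WTLI groups with the irradiation comparisons of a tissue. p-values were adjusted over these by Benjamini-Hochberg, and 0.05 was the threshold. Exact permutation tests used SciPy 1.17.1. Alternatives used edgeR 4.0.16, DESeq2 1.42.0, other scalings and filters, covariates, subsets, and leaving out each library. Scripts were tested on simulated data. Within groups, counts of every pair of libraries differed by more than sampling noise. Replicates are separate mice.

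The members and lists were chosen with earlier results of these data known. Named miRNAs were the members, the 5 most like each arm over group means and the 5 most like miR-342-3p within groups (mean of at least 10 RPM), neighbours within 500000 bases, miRNAs sharing a seed, and marker lists. Of the RefSeq mature miRNAs, 1623 matched a counted name. The letter A or B in sample titles has no stated meaning and was used as a covariate in an alternative.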

Additional observations from a re-analysis of the deposited data

Results flagged for a closer look

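Of 20 combinations of arm and group with 4 to 10 libraries and varying values, 4 held a library far from the others. Chance gives about 1 in 20 only for normally distributed values, and RPM values need not be so distributed. All 4 were the highest library of their group. The irradiated C57 female had the highest miR-342-3p of its group in brain, 1763 RPM against 1139 RPM for the next library. In irradiated C57 WBC the highest value was 161 RPM against 60.7 RPM for the next, and in sham C3H RBC it was 12.5 RPM against 5.85 RPM. In irradiated C57 RBC 1 library alone had miR-342-5p, at 0.279 RPM, which was 1 read. A single read among zeros meets the criterion by construction, so this last one is not to be counted against the chance rate.

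The strain difference in irradiated mice was compared between tissues by exact permutation of strain in 20 comparisons, of which 6 passed the adjusted threshold. For miR-342-3p the value in lung minus that in heart was -1.50, and lung minus brain was -2.02. For miR-342-5p, lung minus brain was -1.90, heart minus brain -1.68, brain minus WBC 2.23 and brain minus RBC 2.29. Since every C3H library had 0 reads of the 5p arm, these 5p values restate the higher level of the arm in C57 brain than in the other C57 tissues and are no test that its strain difference varied by tissue. They count in the adjustment over the 20 comparisons and can lower the adjusted p-values of miR-342-3p.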

How the results depend on the processing

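Across 96 results, 327 of 385 alternatives kept direction and call, as did 799 of 846 runs that left out 1 library or mouse. The strain difference of miR-342-3p in irradiated mice stayed above 0 and called in brain and heart in every alternative run. miR-342-5p in brain passed the filter only through C57, so its repeated calls say nothing about stability.

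With library size alone, the irradiation difference in C3H lung was 1.27 and called (also with sex as a covariate, 1.00, with letter A alone, 1.42, and by exact permutation, 1.26), that in C3H heart was 0.44 and not called, the sex difference in heart was 0.33 and not called, and the strain difference in WBC was 2.20 in irradiated mice, called, and 1.80 in sham mice. The C3H heart call was also lost with edgeR (0.60), DESeq2 (0.61), TMM factors (0.56), no filter (0.72), letter A alone (0.87), letter B alone (0.49) and exact permutation (0.43). The WBC strain difference in irradiated mice was called with edgeR (1.08), DESeq2 (1.09) and exact permutation (2.11). Its direction turned with sex as a covariate, to -0.32, and in sham mice turned with sex as a covariate (-0.30), with letter B alone (-0.068) and among females alone (-0.41). The RBC call in irradiated mice was lost with no filter (1.92), sex as a covariate (0.45) and letter B alone (1.51), and the sex difference in brain was called with edgeR (0.49). The sham strain difference of miR-342-5p in brain moved to 6.26 with edgeR, 5.57 with DESeq2, 4.10 with TMM factors, 4.12 with library size alone and 4.16 with no filter, each of which gives the zeros of C3H another offset.

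Signs of values near 0 turned as follows, none of them called. The irradiation difference in C3H brain, miR-342-5p, was -0.031 with TMM factors, -0.070 with library size alone and -0.064 with letter B alone, all products of the scaling and offset, since every C3H library had 0 reads. In C57 brain, miR-342-3p was -0.0077 with edgeR, -0.00021 with the letter covariate and -0.061 with letter B alone. In C3H WBC it was -0.0077 with edgeR, -0.082 with TMM factors, -0.34 with library size alone, -0.58 with letter B alone and -0.30 by exact permutation. In C57 WBC it was -0.0014 with edgeR, -0.050 with DESeq2 and -0.066 with males alone. In C3H RBC it was 0.25 with edgeR, 0.20 with DESeq2, 0.088 with TMM factors and 0.13 with letter A alone, and in C57 RBC -0.17 with the sex covariate and -0.24 with males alone. The interaction was 0.0071 in brain with the sex covariate, -0.053 (DESeq2) and -0.018 (sex covariate) in WBC, and -0.020 (edgeR), -0.047 (DESeq2) and -0.088 (sex covariate) in RBC. With a pseudocount of 0.5 RPM the WBC minus RBC strain difference was -0.12. The causes of these moves were not tested. Over the alternatives, the number of miRNAs called between irradiated strains ranged from 5 to 83 in brain (main value 29), 13 to 69 in heart (47), 16 to 120 in lung (112), 14 to 196 in WBC (122) and 14 to 51 in RBC (27). After irradiation it ranged from 69 to 129 in C3H lung (117), 4 to 84 in C57 lung (58), 18 to 71 in C3H heart (52), 7 to 28 in C57 heart (11), 0 to 17 in C57 brain (0), 0 to 7 in C57 WBC and C57 RBC (0) and 0 to 22 in C3H RBC (0). For sex in lung it ranged from 14 to 45 (27).

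Leaving out each library gave 0.84 to 1.09 for irradiation in C3H lung (called once, without C3H WTLI replicate 6), 0.62 to 0.86 in C3H heart, -0.096 to 0.086 in C57 brain, -0.059 to 0.23 in C3H WBC and -0.21 to 0.21 in C3H RBC, and 1.55 to 2.11 for the strain difference in irradiated RBC. Leaving out each irradiated mouse gave, for differences of the miR-342-3p strain difference between tissues, -1.96 to -1.21 for lung minus WBC and -1.85 to -0.96 for lung minus RBC (each past the adjusted threshold once, without C57 WTLI replicate 5), -0.37 to 0.43 for heart minus WBC, -0.27 to 0.51 for heart minus RBC, 0.29 to 1.03 for brain minus WBC (past it once, without C57 WTLI replicate 2) and -0.24 to 0.34 for WBC minus RBC. For miR-342-5p it gave 0.26 to 0.50 for lung minus RBC, 0.44 to 0.75 for heart minus WBC, 0.47 to 0.76 for heart minus RBC (these 3 past it once each, without C57 WTLI replicate 2) and -0.0093 to 0.18 for WBC minus RBC.

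With no filter miR-342-5p was fitted outside the brain. Irradiated C57 exceeded irradiated C3H by 1.51 in lung, 1.95 in heart and 0.63 in WBC. These values are given without a test, since every C3H library was at 0, and the WBC value rests on 2 reads. After irradiation in C57 WBC the difference was 0.63 (limma adjusted p = 0.018), on the same 2 reads. With at least 10 counts in every library miR-342-5p in brain and miR-342-3p in RBC were not tested. No replicate block was fitted between groups, since replicate numbers only name the mice of a group. Tissues were compared within mice.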
